A study of Mus musculus with 6 samples.

Results

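Notch signalling genes and their inhibitor Numb were followed in upper first molars of newborn mice that carry an Ascl5 mutation on both alleles, on 1 allele or on none. The set holds 10 genes, chosen by symbol, of 24972 genes in the deposited tables: the ligands Jag1, Jag2 and Dll1, the receptors Notch1, Notch2 and Notch3, the inhibitor Numb and its relative Numbl, and the target genes Hes1 and Hey1. All 10 symbols were found in both tables.

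RNA came from maxillary first molars at postnatal day 1, with 2 libraries each of Ascl5Mut/Mut, Ascl5Mut/WT and Ascl5WT/WT molars. Ascl5 belongs to the basic helix-loop-helix family of DNA-binding proteins. All libraries share 1 batch in the labels, which do not say what the mutant allele changes, what strain the mice were, or whether teeth or animals were pooled. Nothing in the labels says that the 2 libraries of a genotype came from separate animals, so p-values measure only the spread between these samples. The tables list Ascl5 itself at 0 throughout, which gives no check of the genotype labels.

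Notch receptors sit in the membrane of one cell and are switched on by Jagged or Delta-like ligands on the neighbouring cell. Proteases then free the receptor's inner part, which enters the nucleus, joins the DNA-binding protein Rbpj and turns on repressors of the Hes and Hey families. Numb, an adaptor of endocytosis, holds Notch signalling down by removing the receptor, and Numbl is its close relative. In the mouse tooth, Notch receptors and Jagged ligands are known from the enamel epithelium and the pulp, and Notch3 from the mural cells of vessels.

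The values are normalized counts on a linear scale, made by the authors in 2 tables that each hold 1 mutant genotype with the same 2 Ascl5WT/WT libraries. The tables were normalized separately, so each mutant genotype was tested only against Ascl5WT/WT in its own table, and no test was run between the mutant genotypes. Low values cluster near multiples of a step of 108.7 to 139.8 normalized counts, taken here as the worth of about 1 read, which puts the depth at an estimated 90476 to 117166 reads counted to genes per library. At this depth 66.6% to 71.0% of genes were listed at 0 in a library. A listing of 0 was taken throughout to allow up to 3 reads, or 326 to 419 normalized counts. This limit was set by choice, and a two-sided exact 95% Poisson interval at 0 reaches further, to 3.69 reads. Read numbers given below are values divided by that step and rounded, and their exact 95% Poisson intervals cover counting error only.

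The promoter windows of Numb and Notch2 are shown because both genes, chosen after their values were seen, were low in the same libraries, and because proteins of Ascl5's family bind E-boxes, spelled CANNTG and searched as such (the motif reads the same on both strands). The windows are RefSeq's for GRCm38.p6, 250 bases before to 50 after a transcript start, with E-box matches in capitals. Numb has 3 such starts, of which the most upstream and the most downstream are shown, at chr12:83921885-83922184 and chr12:83842309-83842608, both on the minus strand. The Notch2 window is chr3:98013288-98013587 on the plus strand.
Numb, upstream start: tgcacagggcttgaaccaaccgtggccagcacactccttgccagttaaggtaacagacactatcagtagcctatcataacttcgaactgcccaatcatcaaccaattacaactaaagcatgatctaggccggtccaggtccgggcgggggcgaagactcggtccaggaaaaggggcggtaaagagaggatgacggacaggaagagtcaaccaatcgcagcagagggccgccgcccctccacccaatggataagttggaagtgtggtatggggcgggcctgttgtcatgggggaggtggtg
Numb, downstream start: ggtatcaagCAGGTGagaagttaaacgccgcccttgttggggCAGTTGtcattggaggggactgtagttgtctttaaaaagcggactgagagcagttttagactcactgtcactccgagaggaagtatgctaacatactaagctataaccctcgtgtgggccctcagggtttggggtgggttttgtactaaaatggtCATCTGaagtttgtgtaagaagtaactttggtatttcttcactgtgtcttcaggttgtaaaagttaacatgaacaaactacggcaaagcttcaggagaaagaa
Notch2: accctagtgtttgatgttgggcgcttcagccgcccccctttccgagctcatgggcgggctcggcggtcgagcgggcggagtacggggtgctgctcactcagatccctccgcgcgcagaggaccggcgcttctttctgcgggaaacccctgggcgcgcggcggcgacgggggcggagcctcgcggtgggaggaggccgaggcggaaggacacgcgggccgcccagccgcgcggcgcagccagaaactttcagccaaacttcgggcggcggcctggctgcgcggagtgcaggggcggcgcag
The upstream Numb window and the Notch2 window hold no CANNTG, while the downstream Numb window holds 3 matches, which begin 241, 208 and 53 bases before the start. The middle Numb window, not shown, holds 2, which begin 240 and 200 bases before its start. Of 32851 promoter windows in the table, 72.3% hold at least 1 CANNTG. The Rbpj motif GTGGGAA, searched on both strands, was in none of the 11 windows of the 8 members matched, against 6.38% of all windows. Which Numb start was used cannot be read from counts per gene.

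Numb, the inhibitor, lies on chromosome 12 (83794034 to 83921934, minus strand, GRCm38). Its values were 1532 and 4195 normalized counts in Ascl5Mut/Mut, against 25020 and 15224 in the Ascl5WT/WT libraries of the same table. Both Ascl5Mut/Mut libraries were below both Ascl5WT/WT libraries, as they were for 21.8% of the genes tested. The estimated reads were 11 (5.49 to 19.7) and 31 (21.1 to 44.0) in Ascl5Mut/Mut, against 230 (201 to 262) and 127 (106 to 151) in Ascl5WT/WT, so the counting intervals of the groups do not meet. Numb averaged 2864 ± 1883 normalized counts in Ascl5Mut/Mut and 20122 ± 6927 in Ascl5WT/WT (SD, n = 2 each), a mean 7.03 times lower. On the log2(normalized count + 120) scale Numb fell by 2.88 (SE 0.53, 95% interval -4.07 to -1.69, limma adjusted p = 0.0403).

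That made Numb 1 of 10 members called in Ascl5Mut/Mut, where 0.856% of the 2336 genes tested were called and 0.3% were called as lower. Only 3 members, Numb, Notch2 and Notch1, had the mean of at least 1000 normalized counts that the test asked for in each table, and 7 did not. Notch1 reached that mean only through the mutant libraries, in both tables. The call of Numb depended on the settings: the direction held in 13 of 13 alternatives, but the limma adjusted p stayed under 0.05 in 4 of them and ranged from 0.0103 to 0.645. With a pseudocount of 1 and a minimum mean of 10, the settings of an earlier analysis of these data, it was 0.308 and 0 of 12731 genes were called, with 1280 at an unadjusted p under 0.05. The log2 fold change was -2.19 without Ascl5Mut/Mut replicate 1 (limma adjusted p = 0.341), -3.57 without Ascl5Mut/Mut replicate 2 (0.224) and -2.52 without Ascl5WT/WT replicate 1 (0.278). In each of these fits 1 group is a single library, assumed to vary like the other group, and without either Ascl5Mut/Mut library 0 genes at all were called.

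Numb was not called in Ascl5Mut/WT molars. It had 22638 and 43082 normalized counts there, against 25420 and 15821 in the Ascl5WT/WT libraries of that table, so the groups overlap and the highest value is that of Ascl5Mut/WT replicate 2. The log2 fold change was 0.64 (SE 0.37, 95% interval -0.13 to 1.40, limma adjusted p = 0.594). Among 10 members, 0 were called in this comparison, where 0.549% of 2370 genes were called, 0.211% as lower and 0.338% as higher. At an unadjusted p under 0.05 no tested member passed either, and 8.73% of all genes tested did.

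Numbl (chromosome 7, 27258433 to 27282144, plus strand) is listed at 0 in each of the 6 libraries. In each library that allows up to 3 reads, so Numbl was not detected at this depth and a low level remains possible.

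**Figure D1:**
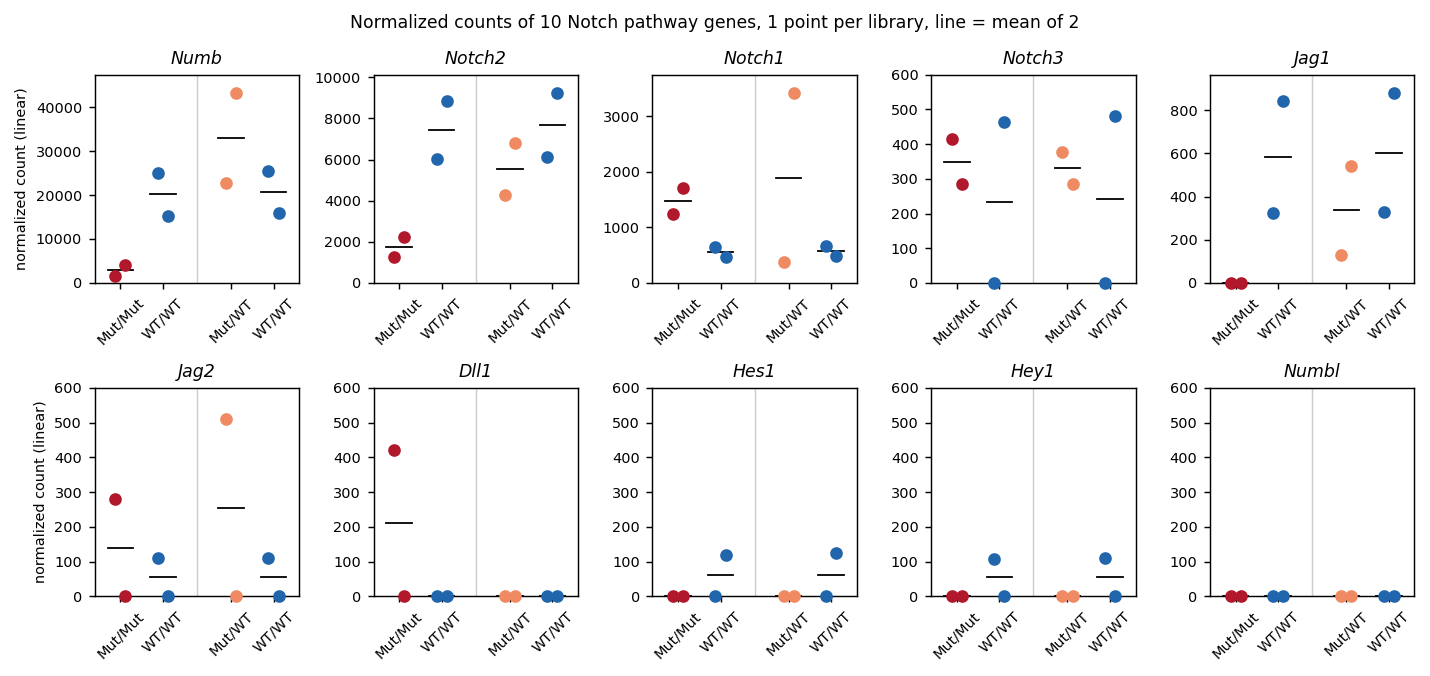
Normalized counts on linear axes that start at 0 and differ between genes, 1 point per library, with a line at the mean of the 2 libraries; left of the grey line is the table with Ascl5Mut/Mut (dark red) and Ascl5WT/WT (blue), right of it the table with Ascl5Mut/WT (orange) and the same Ascl5WT/WT libraries. Numb lies at 1532 and 4195 in Ascl5Mut/Mut, under all other points of its panel, and Numbl is at 0 throughout.

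Notch2, a receptor (chromosome 3, 98013527 to 98150361, plus strand), was the other tested member that stood low in Ascl5Mut/Mut molars. Its values were 1255 and 2215 normalized counts in Ascl5Mut/Mut, against 6008 and 8856 in Ascl5WT/WT, on an estimated 9 and 16 reads against 55 and 74. Both Ascl5Mut/Mut libraries were below both Ascl5WT/WT libraries, an order that 21.8% of the genes tested also showed. The means were 1735 ± 679 in Ascl5Mut/Mut and 7432 ± 2014 in Ascl5WT/WT (SD, n = 2 each). The log2 fold change was -2.05 (SE 0.54, 95% interval -3.25 to -0.85), with an unadjusted p of 0.0034 that did not pass over all genes (limma adjusted p = 0.168). In Ascl5Mut/WT it had 4291 and 6801 normalized counts, against 6108 and 9209 in Ascl5WT/WT, and the groups overlap. No member had both Ascl5Mut/WT libraries below both Ascl5WT/WT libraries among the 3 tested, an order that 19.5% of the genes tested showed. The log2 fold change there was -0.46 (SE 0.44, 95% interval -1.39 to 0.46, limma adjusted p = 0.764).

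Notch1, the receptor best known from the inner layers of the enamel organ (chromosome 2, 26457903 to 26516663, minus strand), had higher values in Ascl5Mut/Mut, on few reads. They were 1242 and 1700 normalized counts in Ascl5Mut/Mut, against 654 and 467 in Ascl5WT/WT, or an estimated 9 and 12 reads against 6 and 4. Both Ascl5Mut/Mut libraries were above both Ascl5WT/WT libraries, as they were for 22% of the genes tested, but the counting intervals overlap. The Ascl5WT/WT mean of 561 is under the minimum mean, so Notch1 was tested only because it was high in Ascl5Mut/Mut. The log2 fold change was 1.22 (SE 1.00, 95% interval -1.01 to 3.45, limma adjusted p = 0.652). In Ascl5Mut/WT the values were 378 and 3405, against 663 and 484 in Ascl5WT/WT, so replicate 2 alone was high and alone brought Notch1 into the test. The log2 fold change there was 0.95 (SE 1.22, 95% interval -1.61 to 3.50, limma adjusted p = 0.833), and it was -0.46 without Ascl5Mut/WT replicate 2.

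The last exons of Notch1 overlap 0610009E02Rik, a gene on the opposite strand (chromosome 2, 26445696 to 26459390), by 1068 bases in GENCODE M21, and a further opposite-strand transcript, Gm13568, by 414 bases. 0610009E02Rik had 5216 and 6354 normalized counts in Ascl5Mut/Mut, against 8080 and 6318 in Ascl5WT/WT, each above the Notch1 value of the same library. In the other table it had 2550 and 5785 in Ascl5Mut/WT, against 8240 and 6590 in Ascl5WT/WT. The strand setting of the authors' counting is not given in the sources used here, so reads of this stretch cannot be told apart between both genes. Numb overlaps an opposite-strand transcript, Gm46367, by 166 bases, Notch3 overlaps Gm17276 by 488 bases and Dll1 overlaps A930024N18Rik by 867 bases. These partners and Gm13568 are not listed under these names in the Ascl5Mut/Mut table, so no values are given. Jag1, Jag2, Hes1 and Hey1 overlap no other gene's exon. On its own strand Notch2 overlaps Gm42820 by 541 bases and Numbl overlaps Gm44641 by 85 bases, which stranded counting would not separate.

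Notch3 (chromosome 17, 32120820 to 32166852, minus strand) had 414 and 285 normalized counts in Ascl5Mut/Mut, against 0 and 465 in Ascl5WT/WT. In the other table it had 378 and 285 in Ascl5Mut/WT, against 0 and 481 in Ascl5WT/WT. These are 0 to 4 estimated reads per library and the groups overlap in both tables.

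Among the reads of the 3 receptors, Notch2 made up a smaller share in Ascl5Mut/Mut. It took 42.9% of 21 estimated receptor reads (exact Clopper-Pearson 95% interval 21.8% to 66.0%) and 53.3% of 30 (34.3% to 71.7%) in the Ascl5Mut/Mut libraries, against 90.2% of 61 (79.8% to 96.3%) and 90.2% of 82 (81.7% to 95.7%) in Ascl5WT/WT. In Ascl5Mut/WT the share was 85.0% of 40 reads (70.2% to 94.3%) and 64.9% of 77 (53.2% to 75.5%). The intervals of both Ascl5Mut/Mut libraries lie below those of both Ascl5WT/WT libraries, as does that of Ascl5Mut/WT replicate 2, while that of Ascl5Mut/WT replicate 1 overlaps both. These intervals cover counting error only, not the spread between libraries. The share was computed after the values were seen, has no test, and says nothing of which receptor differed.

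**Figure D2:**
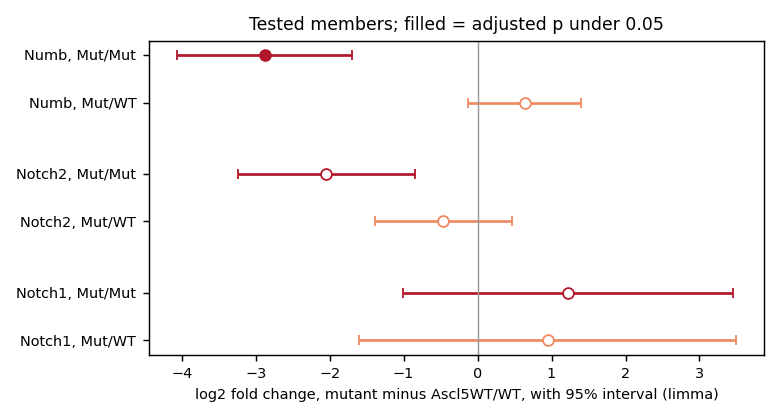
Log2 fold changes of the 3 tested members with limma 95% intervals, mutant minus Ascl5WT/WT, for Ascl5Mut/Mut (dark red) above Ascl5Mut/WT (orange); filled points have an adjusted p under 0.05. Numb in Ascl5Mut/Mut, at -2.88, is the filled point, and the interval of Notch2 in Ascl5Mut/Mut also lies below 0.

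The ligands were near the limit of detection. Jag1 (chromosome 2, 137081456 to 137116644, minus strand), the Jagged ligand of the dental epithelium and mesenchyme, is listed at 0 for both Ascl5Mut/Mut libraries, against 326 and 844 normalized counts in Ascl5WT/WT. A listing of 0 allows up to 419 and 408 normalized counts in these Ascl5Mut/Mut libraries, which is above the value of Ascl5WT/WT replicate 1, so no fold is given. In Ascl5Mut/WT Jag1 had 127 and 544, against 331 and 878 in Ascl5WT/WT, and the groups overlap.

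Jag2 (chromosome 12, 112907819 to 112929776, minus strand), the second Jagged ligand, had 280 and 0 normalized counts in Ascl5Mut/Mut, against 109 and 0 in Ascl5WT/WT. In the other table it had 510 and 0 in Ascl5Mut/WT, against 110 and 0 in Ascl5WT/WT. Dll1 (chromosome 17, 15367354 to 15376872, minus strand), a Delta-like ligand that proneural relatives of Ascl5 are known to switch on in the nervous system, had 420 in Ascl5Mut/Mut replicate 1 and is listed at 0 elsewhere. The values of both ligands come to at most 4 estimated reads in any library.

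The target genes gave almost no reads. Hes1 (chromosome 16, 30064384 to 30067796, plus strand), a repressor that Notch switches on in many tissues, is listed at 0 for the 4 mutant libraries, against 0 and 120 normalized counts in Ascl5WT/WT. Hey1 (chromosome 3, 8663359 to 8667256, minus strand), a related repressor, is also at 0 there, against 109 and 0 in Ascl5WT/WT. Each was seen as 1 estimated read in 1 library, so these data give no reading of Notch output through Hes1 or Hey1.

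Per kilobase of annotated exon (GENCODE M21, all exons of a gene merged), Numb had the highest level of the set in each genotype. In Ascl5Mut/Mut it had 391 and 1071 normalized counts per kb and Notch2 had 116 and 205, next to Notch1 at 87.3 and 119, which overlaps Notch2. In Ascl5Mut/WT Numb had 5780 and 10999 per kb, followed by Notch2 at 398 and 631 and Notch1 at 26.6 and 239, which do not overlap each other. In Ascl5WT/WT, in the table with Ascl5Mut/Mut, Numb had 6388 and 3887 per kb, Notch2 557 and 821, Jag1 55.9 and 145, and Notch1 46.0 and 32.8. Jag1 and Notch1 there rest on 3 to 7 estimated reads and their counting intervals overlap. The other members reached at most 99.7 per kb in any library, the value of Dll1 in Ascl5Mut/Mut replicate 1.

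The other genes of the pathway were read from a list of 69, of which 11 were listed at 0 in all 4 libraries of the Ascl5Mut/Mut table and 7 in all 6 libraries. Of the 11 with a mean of at least 1000 normalized counts there, 0 passed limma in either direction, with a lowest adjusted p of 0.523, beside 0.856% of all genes. At an unadjusted p under 0.05 there were 0, beside 11.2% of all genes. Their log2 fold changes ran from -1.64 to 2.37 with a median of -0.54, beside a median of -0.02 over all genes tested. Both Ascl5Mut/Mut libraries were below both Ascl5WT/WT libraries for 2 of 11 (18.2%, against 21.8% of all genes) and above them for 1 (9.09%, against 22%). In Ascl5Mut/WT 0 of 10 passed limma (lowest adjusted p 0.594), beside 0.549% of all genes, and 0 had an unadjusted p under 0.05, beside 8.73%. Both Ascl5Mut/WT libraries were below both Ascl5WT/WT libraries for 2 of 10 and above them for 1, beside 19.5% and 21.1% of all genes. The median log2 fold change was -0.17, beside 0.04 over all genes tested.

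By role, Mib1, a ubiquitin ligase that lets ligands act, had 259 and 1848 normalized counts in Ascl5Mut/Mut, against 1998 and 3283 in Ascl5WT/WT, a log2 fold change of -1.64 (SE 0.90, limma adjusted p = 0.523). Neurl1a, a second such ligase, differed by -0.27 on the log2 scale with overlapping groups. In the other table Neurl1a had 4158 and 3436 in Ascl5Mut/WT, against 3023 and 2330 in Ascl5WT/WT, without overlap (log2 fold change 0.49, SE 0.51, limma adjusted p = 0.772). Adam17, a protease that can shed membrane proteins including Notch, had 842 and 4381 in Ascl5Mut/Mut, against 1225 and 0 in Ascl5WT/WT, so both groups spread widely, and it reached the minimum mean only through Ascl5Mut/Mut. Adam10, the main protease of the first Notch cut, was under the mean asked for in this table, with 695 and 1602 against 437 and 862.

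Snw1, a nuclear partner of Rbpj, had 1135 and 2125 normalized counts in Ascl5Mut/Mut, against 1872 and 2038 in Ascl5WT/WT. In the other table it had 508 and 802 in Ascl5Mut/WT, against 1911 and 2129 in Ascl5WT/WT, a log2 fold change of -1.49 (SE 0.82, limma adjusted p = 0.594). The groups do not overlap, and Snw1 reached the minimum mean there only through Ascl5WT/WT. Maml1, a coactivator, had 1391 and 561 in Ascl5Mut/Mut, against 850 and 0 in Ascl5WT/WT. The corepressors Tle3 and Ctbp2 differed by -0.84 and 0.72 on the log2 scale in Ascl5Mut/Mut, each with overlapping groups.

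Aak1, a kinase of endocytic adaptors that is known to bind Numb, had 1824 and 2010 normalized counts in Ascl5Mut/Mut, against 877 and 483 in Ascl5WT/WT, and the groups do not overlap. Its log2 fold change was 1.39 (SE 0.83, limma adjusted p = 0.557), and Aak1 was tested only because it was high in Ascl5Mut/Mut. In the Ascl5Mut/WT table it was under the minimum mean. Lnx1, a ubiquitin ligase that targets Numb for breakdown, had 1890 and 857 in Ascl5Mut/Mut, against 1429 and 2582 in Ascl5WT/WT, and the groups overlap. Nedd4, a ubiquitin ligase of the family that acts on Notch, differed by -0.54 on the log2 scale, also with overlap. Itch, of the same family, was listed at 0 in replicate 2 of Ascl5Mut/Mut and of Ascl5WT/WT.

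Ccnd1, a cyclin that Notch can raise in some cells, had the highest values of the list. It had 7416 and 3140 normalized counts in Ascl5Mut/Mut, against 10270 and 7039 in Ascl5WT/WT, with a log2 fold change of -0.80 (SE 0.51, limma adjusted p = 0.579). In Ascl5Mut/WT it had 5188 and 6707, against 10445 and 7322 in Ascl5WT/WT, groups that do not overlap, with a log2 fold change of -0.56 (SE 0.42, limma adjusted p = 0.695). The remaining genes with the highest means of their role, Pofut1 and Poglut1 (sugar transferases of Notch), Nrarp (a Notch feedback inhibitor), Notch4 (the endothelial receptor) and Dlk1 (a ligand-like protein), were below the mean asked for. Notch4 had 403 and 568 normalized counts in Ascl5Mut/Mut, where 1 read is worth about 140 and 136. It is listed at 0 for Ascl5WT/WT, which allows up to 326 and 360, and had 127 and 0 in Ascl5Mut/WT. It thus rests on few reads and was not tested. Of the other ligands listed, Dll3, Dll4, Dlk2 and Dner were at 0 in all 6 libraries.

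**Figure D3:**
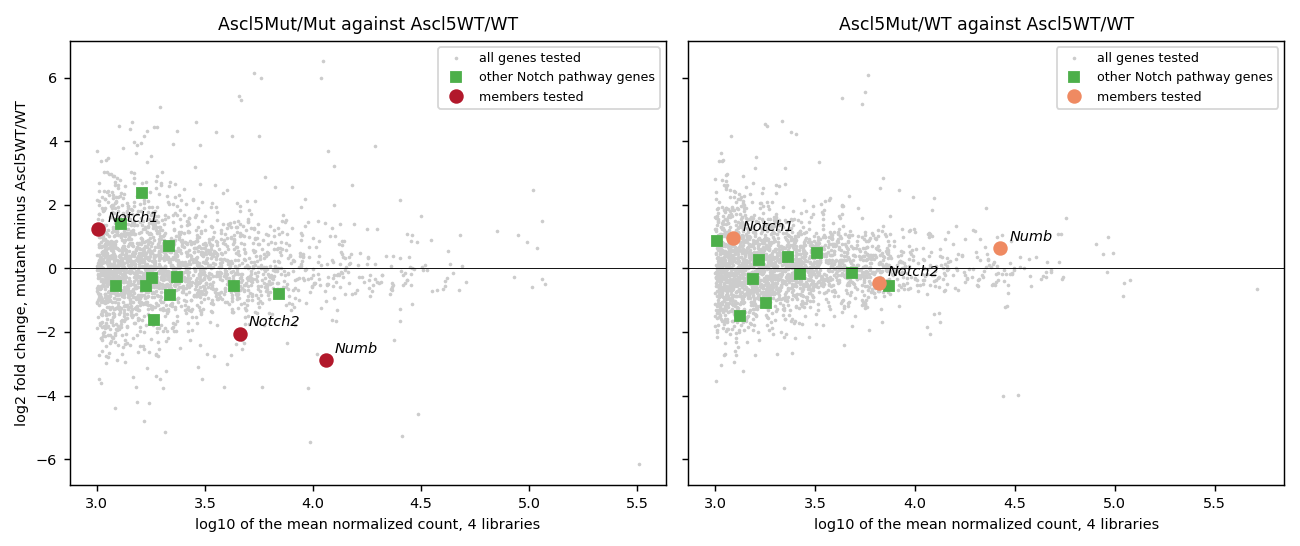
Log2 fold change (vertical) against the log10 of the mean normalized count over a table's 4 libraries, for all genes tested (grey), the other Notch pathway genes tested (green squares) and the 3 tested members (large circles). In Ascl5Mut/Mut, Numb at -2.88 and Notch2 at -2.05 lie below the green squares, which run from -1.64 to 2.37, and in Ascl5Mut/WT all 3 members lie between -0.46 and 0.95.

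The 5 genes whose profile over the 6 libraries came closest to that of Numb were 4933401H06Rik, Krt17, Shisa6, Lrrc51 and G630025P09Rik. Closeness was the root mean square difference of log2(normalized count + 120) minus the Ascl5WT/WT mean of the same table, which was 0.59 to 0.69 for these 5 and had a median of 1.87 over 2028 genes. Because the 5 were picked by these same values, their low levels in Ascl5Mut/Mut follow from the choice. Krt17, a keratin of epithelial cells, had 272 and 1864 normalized counts in Ascl5Mut/Mut, against 4638 and 7184 in Ascl5WT/WT, and its log2 fold change of -2.74 did not pass (SE 0.79, limma adjusted p = 0.221). Shisa6 had 422 and 2057 in Ascl5Mut/Mut, against 5636 and 2860 in Ascl5WT/WT. None of the 5 passed limma in either comparison, and beside Ascl5Mut/Mut the genes 4933401H06Rik, Lrrc51 and G630025P09Rik reached the minimum mean only through Ascl5WT/WT. Notch2 was in place 18 of 2028 with a difference of 0.90, and Notch1 in place 1771 with 2.46.

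**Figure D4:**
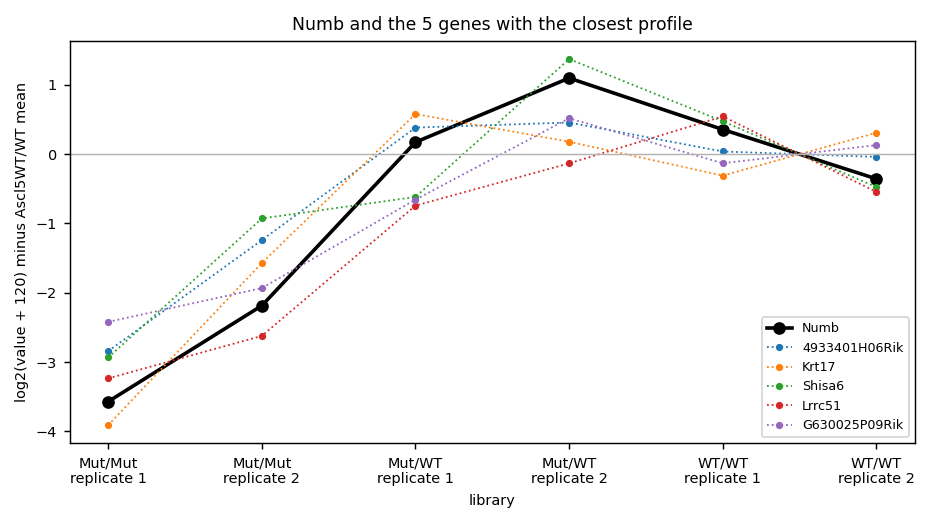
Deviation from the Ascl5WT/WT mean on the log2(normalized count + 120) scale in each of the 6 libraries for Numb (black) and the 5 genes with the closest profile (dotted); lines only join the points of a gene. Numb lies at -3.57 and -2.19 in Ascl5Mut/Mut and above 0 in both Ascl5Mut/WT libraries.

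Cell type markers also differed between the genotypes, and in these bulk samples fewer cells of a type and less RNA per cell cannot be told apart. The summed level of 8 markers of dental and general epithelium was 8516 and 29512 normalized counts in Ascl5Mut/Mut, against 39839 and 31790 in Ascl5WT/WT. Of the 8, 5 were below both Ascl5WT/WT libraries in both Ascl5Mut/Mut libraries and 0 were above. Among the genes tested, which average at least 1000 normalized counts, 21.8% were below and 22% above. Krt8, Krt18 and Epcam, among the 5, were under that mean and listed at 0 in Ascl5Mut/Mut, which allows up to 419 and 408. In Ascl5WT/WT Krt8 had 111 and 472, Krt18 549 and 356, and Epcam 217 and 120. Trp63, a transcription factor of basal epithelium, had 1049 and 5829 in Ascl5Mut/Mut, against 21134 and 13757 in Ascl5WT/WT (limma adjusted p = 0.145). The mean of Numb in Ascl5Mut/Mut was 0.142 times that in Ascl5WT/WT, that of Notch2 0.233 times and that of the epithelial sum 0.531 times. That sum blends markers that differed unequally. Krt14, its largest part in Ascl5Mut/Mut, had 6362 and 20549 there, against 14740 and 13227 in Ascl5WT/WT, with overlap. The epithelial markers tested had log2 fold changes of -0.28 (Krt14), -0.39 (Cdh1), -1.06 (Krt5) and -2.70 (Trp63), and none was called. In Ascl5Mut/WT the epithelial sum was 21146 and 56783, against 40569 and 33362 in Ascl5WT/WT, and the groups overlap.

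Keratinized oral epithelium moved the other way, with a sum over 8 markers of 19389 and 127997 in Ascl5Mut/Mut, against 219 and 540 in Ascl5WT/WT, and all 8 markers higher without overlap. In Ascl5Mut/WT that sum was 14446 and 49207, against 222 and 562 in Ascl5WT/WT. Endothelium, a site of Notch4 and Jag1, had a sum of 1997 and 1538 over 8 markers in Ascl5Mut/Mut, against 486 and 839 in Ascl5WT/WT, with Tie1, Emcn and Esam at 0 in all 4 libraries. The sums do not overlap, and 2 of the 8 markers were higher without overlap, beside 22% of the genes tested. Mural cell markers, where Notch3 is known, summed to 2246 and 4297 in Ascl5Mut/Mut, against 3377 and 2147 in Ascl5WT/WT, and the groups overlap. Dental mesenchyme markers summed to 17324 and 13483 in Ascl5Mut/Mut, against 15100 and 6680 in Ascl5WT/WT, also with overlap. Of the other lists, osteoclast markers were higher in Ascl5Mut/Mut without overlap (mean sum 47.4 times that in Ascl5WT/WT). Their sum is mostly Ctsk and Mmp9, with Ocstamp, Dcstamp and Calcr at 0 in all 4 libraries. The summed markers of stratum intermedium and outer enamel epithelium were also higher without overlap (6.57 times), mostly through Ibsp, a bone matrix gene. Of these 6 markers, 2 were higher without overlap and 1 was lower, beside 22% and 21.8% of the genes tested. The lower one, Cldn10, was at 0 in Ascl5Mut/Mut, against 221 and 119 in Ascl5WT/WT, near the limit of detection. Skeletal muscle markers summed to 202770 and 7552 in Ascl5Mut/Mut, against 7276 and 27289 in Ascl5WT/WT. Schwann and neural markers summed to 3359 and 864, against 669 and 1986. Both lists overlapped, and their mean ratios of 6.08 and 1.59 rest on Ascl5Mut/Mut replicate 1. In Ascl5Mut/WT the osteoclast, stratum intermedium and endothelium sums were higher without overlap too (17.4, 3.56 and 1.72 times). There 2 of the 6 stratum intermedium markers and 2 of the 8 endothelial markers were higher without overlap, and 1 of each list was lower. Of the genes tested, 21.1% were higher and 19.5% lower in that way. The part of these marker differences in the values of Numb, Notch2 and the other members was not tested.

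**Figure D5:**
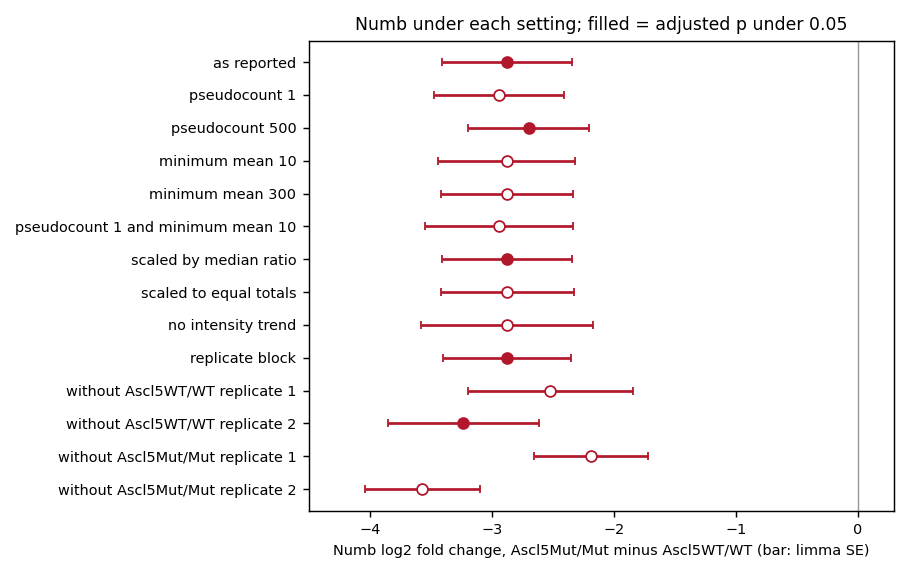
Log2 fold change of Numb, Ascl5Mut/Mut minus Ascl5WT/WT, with limma standard errors, as reported (top) and under 13 alternative settings; filled points have an adjusted p under 0.05. All points lie between -3.57 and -2.19, and 4 of the 13 alternatives are filled.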

How the data were processed

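Normalized gene counts deposited by the authors in 2 tables, a signal on a linear scale, were used as they stand. Per the submitters' processing notes, DESeq2 and the mm10 genome were used, with no role or version given. The labels' protocols name the SMARTer Stranded RNA-Seq kit. Aligner, annotation and strand setting: not given in the sources used here. In the 2 tables the values of Ascl5WT/WT replicates 1 and 2 differed by median ratios of 1.018 and 1.041, in a way that varied between genes. Among values of at most 5 steps, 83.9% to 93.5% fell within 0.1 of a multiple of the step. Reads could not be recovered from this, and count tests were left out.

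Each mutant genotype was tested against Ascl5WT/WT with limma 3.58.1 (R 4.3.3, intensity trend, two-sided) on log2(normalized count + 120), keeping genes that averaged 1000 or more over the 4 libraries of a table. A Benjamini-Hochberg adjusted p under 0.05 over all genes tested was a call. This scale understates fold changes of low genes. With 2 libraries a group, exact permutation cannot reach 0.05 and was not used. The members, lists, settings and rule for named genes were chosen with earlier results of these data known. Named were the members, the 2 pathway genes per role with the highest mean, the 5 genes closest to Numb, opposite-strand partners and cell type markers. Alternatives changed pseudocount, minimum mean, scaling, trend, replicate block and libraries.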

Additional observations from a re-analysis of the deposited data

How the results depend on the processing

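The fall of Numb in Ascl5Mut/Mut kept its direction in all 13 alternatives. The 1 member called became 0 with a pseudocount of 1, with a minimum mean of 10 or 300, with both a pseudocount of 1 and a minimum mean of 10, with equal totals and without the intensity trend, and ranged from 0 to 1 when single libraries were left out. For Numb these 6 settings gave limma adjusted p of 0.129, 0.645, 0.119, 0.308, 0.0588 and 0.291. The cause was not tested. In Ascl5Mut/WT 0 members, and in both comparisons 0 of the other pathway genes, were called under any setting run.

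Genes called in Ascl5Mut/Mut numbered 20 as reported, 4 with a pseudocount of 1, 1 and 4 with a minimum mean of 10 and 300, 0 with a pseudocount of 1 and a minimum mean of 10, 0 without the trend and 0 to 33 without single libraries (7 without Ascl5WT/WT replicate 1, 33 without Ascl5WT/WT replicate 2, 0 without either Ascl5Mut/Mut library). Where 0 were called, 1280, 242, 262 and 224 genes had an unadjusted p under 0.05. In Ascl5Mut/WT they numbered 13 as reported, 8 with a pseudocount of 1, 21 with a minimum mean of 300, 0 with a pseudocount of 1 and a minimum mean of 10, 0 without the trend and 0 to 34 without single libraries (20 and 34 without Ascl5WT/WT replicates 1 and 2, 0 without either Ascl5Mut/WT library). Where 0 were called, 1055, 190, 113 and 127 had an unadjusted p under 0.05. With the replicate block the counts were 36 and 37, and Numb in Ascl5Mut/Mut had an adjusted p of 0.0103 (limma); the labels give only a shared number, and deviations of same-numbered libraries correlated at -0.01 and 0.02 across genes, so the numbers were not taken as pairs. Notch1 in Ascl5Mut/WT reversed to -0.46 without Ascl5Mut/WT replicate 2 and was 2.36 without replicate 1; the cause was not tested. Depth limits the ligands and targets, whose values are 0 to 7 estimated reads.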

Other observations

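Per kilobase of exon, Numb stood at 3.36 and 5.21 times the level of Notch2 in the Ascl5Mut/Mut libraries, at 14.5 and 17.4 times in the Ascl5Mut/WT libraries, and at 11.5 and 4.73 times in Ascl5WT/WT. Both Ascl5Mut/WT ratios were above both Ascl5WT/WT ratios, and those of Ascl5Mut/Mut overlap Ascl5WT/WT. Such an order is common with 2 libraries a group: the values of 21.1% of the genes tested in Ascl5Mut/WT showed it. The share among ratios of genes was not computed. The ratio was computed after the values were seen and has no test.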
